A study of Homo sapiens with 15 samples.

Results

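The 10 genes described here are the metallothioneins MT1E, MT1X, MT2A and MT3 and the antioxidant defence genes GPX3, SOD2, SOD3, NQO1, HMOX1 and TXNRD1. They were taken by their symbols from tables that list 19684 genes, and all 10 were found. Poly(A) RNA came from 15 libraries, 3 in each of 5 groups. These were undifferentiated hiPSCs of the BC1-GFP line, the neural retina (NR) layers of retinal organoids at day 70 and day 150 of differentiation (D70-ROs and D150-ROs, with levels given at D70 and at D150), and Müller glial cells (MGCs) expanded in culture from D150-ROs, taken on day 5 of passage 1 (P1 iMGCs) and of passage 5 (P5 iMGCs). All groups share this GFP-carrying wild-type line, no drug treatment is named, and the NR layers of several ROs were pooled per experiment. The culture medium differed between the groups. The hiPSCs grew on Matrigel in mTeSR1 medium. The ROs were kept in suspension in retinal medium with serum, in which B27 supplement gave way to N2 between the RO stages, while the iMGCs grew attached to Matrigel in DMEM with serum, so stage, culture form and medium cannot be told apart. The sources disagree on whether the hiPSC and RO libraries came from 2 or 3 independent experiments. A second sequencing provider and a batch correction are mentioned in the series description but tied to no library. The p-values measure only the spread between these libraries, which may in part be technical, and batch and group cannot be told apart here. The iMGC values stand in another table than those of hiPSCs and ROs, so comparisons between them cross tables.

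Metallothioneins are small, cysteine-rich proteins that bind zinc and copper, and their genes are switched on by the zinc-sensing factor MTF1 through metal response elements. The transcription factor NRF2, held in check by KEAP1, drives NQO1, HMOX1 and TXNRD1 through antioxidant response elements. NQO1 reduces quinones, HMOX1 breaks down heme, and TXNRD1 keeps thioredoxin reduced. SOD2 (mitochondria) and SOD3 (outside the cell) turn superoxide into hydrogen peroxide, which GPX3, a secreted glutathione peroxidase, removes. In the retina, MGCs are the glia that span the NR and are known for antioxidant support of the neurons.

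The metallothionein members lie in 1 cluster on the plus strand of chromosome 16 (GRCh38, GENCODE 29), in the order MT3 (chr16:56589074-56591088), MT2A (chr16:56608199-56609497), MT1E (chr16:56625475-56627112) and MT1X (chr16:56682424-56684196). The coding sequences of MT1E, MT1X and MT2A are shown because they are so alike. Capitals mark the TGC and TGT codons, which encode cysteine.
MT1E: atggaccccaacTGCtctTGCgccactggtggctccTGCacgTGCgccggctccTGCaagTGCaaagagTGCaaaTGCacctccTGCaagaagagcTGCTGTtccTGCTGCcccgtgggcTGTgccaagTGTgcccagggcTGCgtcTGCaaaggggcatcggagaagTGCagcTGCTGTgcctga
MT1X: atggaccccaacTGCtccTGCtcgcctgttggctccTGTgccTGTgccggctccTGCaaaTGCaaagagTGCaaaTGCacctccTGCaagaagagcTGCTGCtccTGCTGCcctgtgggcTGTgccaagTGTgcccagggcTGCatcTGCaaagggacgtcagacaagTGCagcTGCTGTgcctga
MT2A: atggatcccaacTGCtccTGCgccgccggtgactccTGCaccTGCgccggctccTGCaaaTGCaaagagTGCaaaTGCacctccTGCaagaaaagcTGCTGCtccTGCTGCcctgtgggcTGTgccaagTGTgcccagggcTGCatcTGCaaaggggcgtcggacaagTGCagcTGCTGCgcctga

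Each of these 3 coding sequences holds 20 such codons, which make up 32.8% of its 61 codons. Over their 186 coding bases, MT1E and MT2A share 92.5%, MT1X and MT2A 92.5%, and MT1E and MT1X 90.9%. Of the 50-base words in their annotated transcripts, 7.1% for MT1E, 18.3% for MT1X and 3.02% for MT2A also occur in a transcript of another gene, and none for MT3. At 100 bases the share was 0 for MT1E and MT2A and 11.3% for MT1X, where AC026461.1, a gene that overlaps it on the same strand, holds the shared words. The deposited expected counts of MT1E, MT1X and MT2A were whole numbers in all 15 libraries. The counts are estimates by the software RSEM, and its settings for reads that match several genes are not given in the sources used here.

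The stretches upstream of the RefSeq start sites (GRCh38.p14) are shown for MT2A, MT1X and TXNRD1, whose windows hold matches to the elements named above. The metal response element core was searched as TGCACNC or TGCGCNC and the antioxidant response element core as TGACNNNGC, on both strands, in the 250 bases before each start. Capitals mark the matches, which in these stretches do not overlap.
MT2A, chr16:56608412-56608441 (plus strand): gcccGTGTGCAgagccgggTGCGCCCggcc
MT2A, chr16:56608477-56608505 (plus strand): aagTGACTCAGCgcggggcGTGTGCAggc
MT1X, chr16:56682381-56682409 (plus strand): tcagcaggggcGGGTGCAaggacgaggcg
TXNRD1, chr12:104215670-104215698 (plus strand): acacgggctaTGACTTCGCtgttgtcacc

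The MT2A window (chr16:56608334-56608583) held 7 metal response cores and 1 antioxidant response core, and the MT1X window (chr16:56682220-56682469) held 4 and 1. Among 35116 promoter windows of this length, 24.8% held at least 1 metal response core, 0.37% at least 4 and 0.0313% at least 7, and 10.9% held at least 1 antioxidant response core. The 2 TXNRD1 windows held 1 and 0 metal response cores and 1 antioxidant response core each. GENCODE 29 places the start of MT2A further upstream than RefSeq, so that its window lies within the first annotated exon there, and the last 46 bases of the MT1X window are exonic as well. No match to either core was found in the windows of GPX3 and NQO1. By GENCODE 29, the NQO1 window (chr16:69726561-69726810) lies wholly within the gene, and part of the GPX3 window (chr5:151020341-151020590) does. Bases further upstream were not searched, so this does not show that the genes lack such elements. SOD3 had 1 metal response core and SOD2 had 1 and 2 in 2 of its 4 windows. The 2 SOD2 matches that share a window overlap each other on opposite strands, so they mark 1 site. RefSeq windows were matched for 7 of the 10 genes, and MT1E, MT3 and HMOX1 were not among them.

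**Figure D1:**
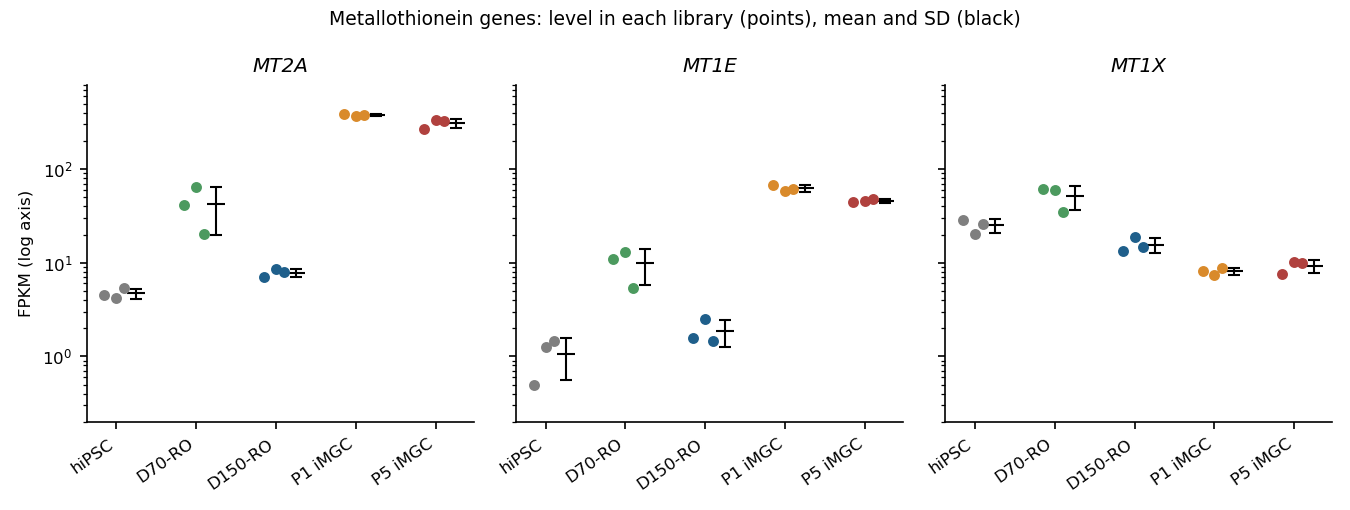
FPKM of MT2A, MT1E and MT1X (log axis) in each of 3 libraries per group, with the mean and SD in black. MT2A and MT1E were highest in the iMGCs, next at D70 and low in hiPSCs and D150-ROs, whereas MT1X was highest at D70 and lowest in the iMGCs.

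MT2A was the most abundant metallothionein of the iMGCs. Its FPKM, a level scaled for transcript length and library size, was 4.49, 4.23 and 5.36 in the 3 hiPSC libraries, 40.9, 64.3 and 20.4 at D70, and 7.00, 8.52 and 8.03 at D150. In P1 iMGCs MT2A had 383, 372 and 379 FPKM, and in P5 iMGCs 270, 332 and 330. The 5 groups did not overlap in MT2A, and the order of their means was P1 iMGC, P5 iMGC, D70-RO, D150-RO, hiPSC. Relative to their mean the D70-ROs spread most, at 41.9 ± 22.0 FPKM (mean ± SD, n = 3), and their highest value came from the shallowest library of the 15.

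MT1E followed the same order of groups at a lower level. It had 0.49, 1.26 and 1.46 FPKM in hiPSCs, 11.1, 13.2 and 5.34 at D70, and 1.56, 2.52 and 1.46 at D150. The P1 iMGCs had 67.5, 58.2 and 61.1 FPKM of MT1E and the P5 iMGCs 44.1, 45.3 and 47.9. Only hiPSCs and D150-ROs overlapped in MT1E, and the hiPSC values rest on 7, 12 and 21 counts.

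MT1X was distributed differently. Its FPKM was 28.8, 20.4 and 26.1 in hiPSCs, 61.2, 59.5 and 34.4 at D70, and 13.3, 18.8 and 14.6 at D150. It had 8.13, 7.39 and 8.81 FPKM in P1 iMGCs and 7.61, 10.2 and 9.94 in P5 iMGCs. These 2 lowest groups overlapped each other, and every other pair of neighbours in the order D70-RO, hiPSC, D150-RO, P5 iMGC, P1 iMGC lay apart.

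MT3, the metallothionein known from the brain, was hardly detected. It had 2 counts over the 3 hiPSC libraries, 2 over the D70-ROs, and 1, 5 and 1 in the D150-ROs, at no more than 0.60 FPKM. Both groups of iMGCs had 0 counts in 3 libraries, which allows up to 3 counts over each group. MT3 never passed the filter for the tests, and no fold is given.

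**Figure D2:**
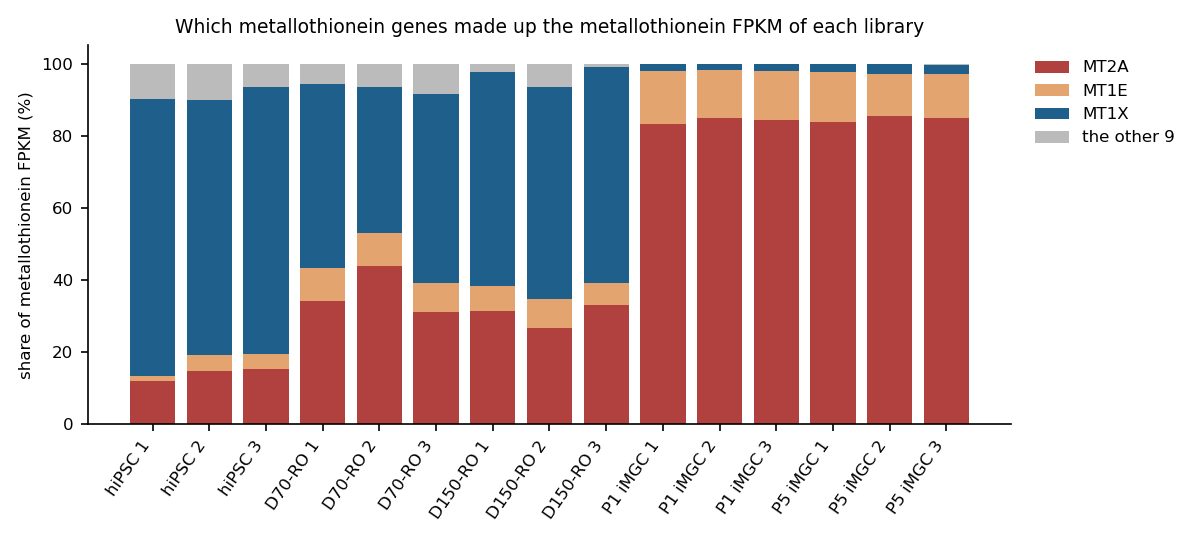
Share (%) of the summed metallothionein FPKM held by MT2A, MT1E, MT1X and the other 9 metallothionein genes in each of 15 libraries. MT1X made up 70.9% to 77.0% in hiPSCs, and MT2A made up 83.4% to 85.6% in the iMGCs.

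As a share of the FPKM of all 12 metallothionein genes in the tables, MT1X held 70.9% to 77.0% in the hiPSC libraries, 40.6% to 52.4% at D70 and 58.9% to 60.0% at D150. In the iMGCs its share was 1.69% to 2.63%, and MT2A held 83.4% to 84.9% at P1 and 83.9% to 85.6% at P5. The ratio of MT2A to MT1X in FPKM was 0.156 to 0.207 in hiPSCs, 0.592 to 1.08 at D70, 0.454 to 0.552 at D150, 43.0 to 50.4 in P1 iMGCs and 32.6 to 35.5 in P5 iMGCs. The ratio of MT2A to MT1E stayed between 3.36 and 9.16 in all 15 libraries. The summed metallothionein FPKM was 28.8 to 37.4 in hiPSCs, 65.7 to 147 at D70, 22.4 to 31.9 at D150, 438 to 459 in P1 iMGCs and 322 to 388 in P5 iMGCs. The 8 metallothionein genes that are no members, MT1A, MT1B, MT1F, MT1G, MT1H, MT1HL1, MT1M and MT4, summed to 5.50 to 9.33 FPKM at D70 and to at most 0.93 FPKM in any iMGC library.

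For tests, expected counts were compared between 2 groups at a time with edgeR, and a gene was called when its adjusted p (Benjamini-Hochberg, over all genes tested) was under 0.05 and its change at least 2-fold. The SE given with edgeR was worked back from the test statistic and may understate the error. Of the 9 members tested between D70-ROs and hiPSCs, 4 were called, 2 higher and 2 lower, against 43.5% of all genes tested (22.5% higher and 21.1% lower). Between D150-ROs and D70-ROs 5 of 8 were called, all lower, against 33.3% of all genes in either direction (16.6% higher and 16.7% lower). On log2(FPKM + 1), limma also called GPX3 higher there. Between D150-ROs and hiPSCs 4 of 9 were called, all lower (background 58.8%, with 29.8% higher and 29% lower). With a smooth trend on transcript length removed, the 4 called there were 2 higher (MT1E and MT2A) and 2 lower (HMOX1 and SOD3), and between D150-ROs and D70-ROs 1 higher (GPX3) and 2 lower (MT1E and MT2A). In P1 iMGCs against D150-ROs, 6 of 8 members were called, 5 higher and 1 lower, where 44.1% of all genes were called, 20% higher and 24.1% lower. Between P5 and P1 iMGCs 0 of 8 were called, where 2.92% of all genes were (1.94% higher and 0.977% lower). Between P1 iMGCs and hiPSCs 7 of 9 were called, 4 higher and 3 lower, against 55.8% of all genes (26.1% higher and 29.7% lower). Comparisons that name the same group share its 3 libraries. In bulk RNA, fewer cells of a type and less RNA per cell cannot be told apart.

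**Figure D3:**
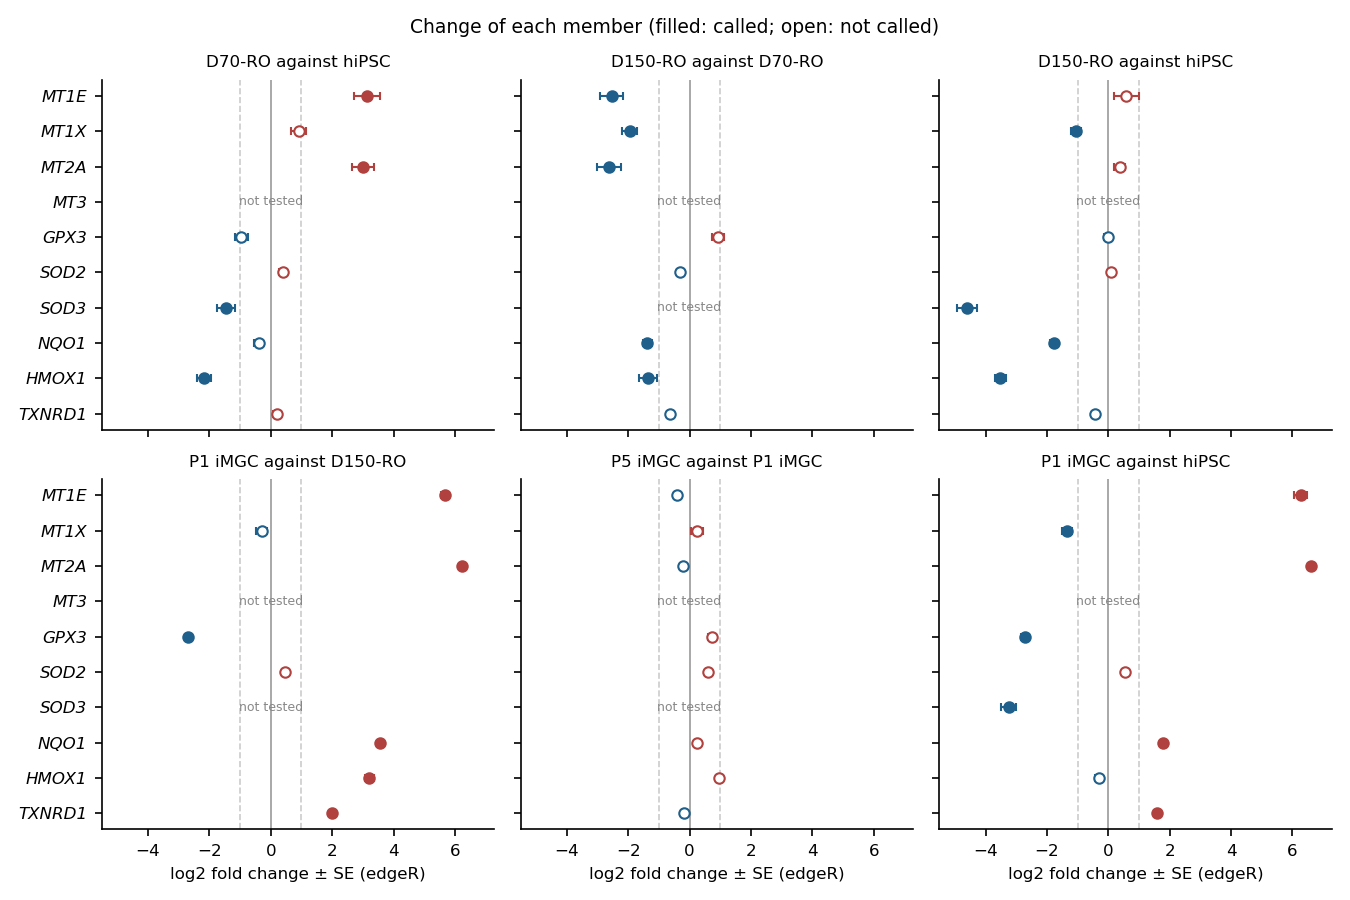
Log2 fold change ± SE by edgeR of each member in the 6 comparisons of 3 against 3 libraries, filled where called and open where not, with dashed lines at a 2-fold change. The SE was worked back from the test statistic and may understate the error. Within P1 iMGCs against D150-ROs, MT2A and MT1E had the largest changes (6.23 and 5.68), and in P1 iMGCs against hiPSCs theirs were 6.60 and 6.26. All 8 members tested lay within the dashed lines in P5 against P1 iMGCs.

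From hiPSCs to D70-ROs, MT2A rose by a log2 fold change of 3.01 (SE 0.37, adjusted p = 2.15e-05, edgeR) and MT1E by 3.13 (SE 0.42, adjusted p = 4.18e-05, edgeR). MT1X had a log2 fold change of 0.91 (SE 0.23, adjusted p = 0.0044, edgeR), just under 2-fold, and passed it at 1.23 without D70-RO replicate 3. That library had the lowest MT2A, MT1E and MT1X of its group. D70-RO replicates 1, 2 and 3 had 16.9, 29.3 and 5.67 FPKM of PAX2, a gene of the optic stalk that is also among the 6 astrocyte markers, and the other 5 of these summed to 1.89, 1.52 and 1.97 FPKM. The pigment epithelium markers summed to 177, 224 and 154 FPKM, the mesenchymal markers to 26.3, 35.4 and 20.0 and the MGC markers to 1950, 2740 and 1840. PAX2 and these 3 lists were thus highest in replicate 2 and lowest in replicate 3, as MT2A and MT1E were. The other astrocyte markers were not. The pluripotency markers, at 8.19, 9.16 and 6.11 FPKM, had this order too. The photoreceptor (153, 141 and 151), proliferation (276, 207 and 270) and microglia markers (0.71, 0.06 and 0.08) were lowest in replicate 2. The endothelial markers (15.6, 18.1 and 16.1) were lowest in replicate 1. Within the lists, VIM (1540 ± 428 FPKM), PMEL (102 ± 25.2) and THY1 (11.6 ± 8.97) spread widely at D70. DKK3 (384 ± 12.3) and PDGFRB (9.22 ± 0.131) varied little. An order of 3 libraries is only a description, and the part of any cell type in the metallothionein levels was not tested.

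From D70-ROs to D150-ROs all 3 fell, MT2A by a log2 fold change of −2.62 (SE 0.38, adjusted p = 2.62e-04, edgeR), MT1E by −2.54 (SE 0.38, adjusted p = 2.82e-04, edgeR) and MT1X by −1.95 (SE 0.25, adjusted p = 1.11e-04, edgeR). Short transcripts as a whole moved the same way. The median log2 fold change was −0.67 over the 25% of genes with the shortest transcripts (up to 1801 bases) and 0.55 over the longest 25%, and the lengths implied for MT1X, MT1E and MT2A were 451, 696 and 786 bases, and at most 3.33% of genes were shorter than any of these. With a smooth trend on length removed, the changes were −1.48 for MT2A and −1.29 for MT1E, still called, and −0.29 for MT1X, which was not (adjusted p = 0.212, edgeR). Against hiPSCs, D150-ROs had log2 fold changes of 0.38 for MT2A (adjusted p = 0.0638, edgeR) and 0.59 for MT1E (adjusted p = 0.192, edgeR), neither past the threshold. With the trend removed, these became 1.54 and 1.82 and were called. MT1X was lower by a log2 fold change of −1.05 (SE 0.18, adjusted p = 1.15e-04, edgeR), a call that was lost without D150-RO replicate 1 (−0.77) or 3 (−0.82) and on log2(FPKM + 1) (−0.66), and that turned to 0.41 with the length trend removed.

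From D150-ROs to P1 iMGCs, MT2A rose by a log2 fold change of 6.23 (SE 0.07, adjusted p = 3.97e-19, edgeR) and MT1E by 5.68 (SE 0.14, adjusted p = 2.88e-15, edgeR). MT1X had a log2 fold change of −0.29 (SE 0.18, adjusted p = 0.138, edgeR), which did not pass the threshold, although its P1 and D150-RO libraries did not overlap in FPKM. With the length trend removed it was called lower, at −1.15. The ratio of mean FPKM between P1 iMGCs and D150-ROs was 48.1 for MT2A, 33.7 for MT1E and 0.522 for MT1X. Against hiPSCs, P1 iMGCs were higher by 6.60 for MT2A and 6.26 for MT1E, and lower by −1.35 for MT1X (SE 0.17, adjusted p = 1.39e-05, edgeR), on the log2 scale. The last call was lost, at −0.74, with the length trend removed.

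FPKM and edgeR's scaling differ between these groups. Levels of the members are given in FPKM beside the edgeR values, while the counts of called list genes below are by edgeR alone. In P1 iMGCs against D150-ROs the median log2 fold change of all genes tested was −0.05 by edgeR and −0.59 by limma on log2(FPKM + 1), and 2581 of 5686 called genes were higher by edgeR against 1329 of 5807 by limma. The medians were −0.08 and −0.35 in P1 iMGCs against hiPSCs (3307 of 7066 and 2279 of 6406 called genes higher), −0.01 and 0.19 at D150 against D70-ROs (2131 of 4276 and 2250 of 3552), and −0.02 and 0.27 at D150 against hiPSCs. MT2A, MT1E, NQO1, HMOX1, TXNRD1 and GPX3 kept their direction and their call in P1 iMGCs against D150-ROs on both scales, and SOD2 did not keep its direction.

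**Figure D4:**
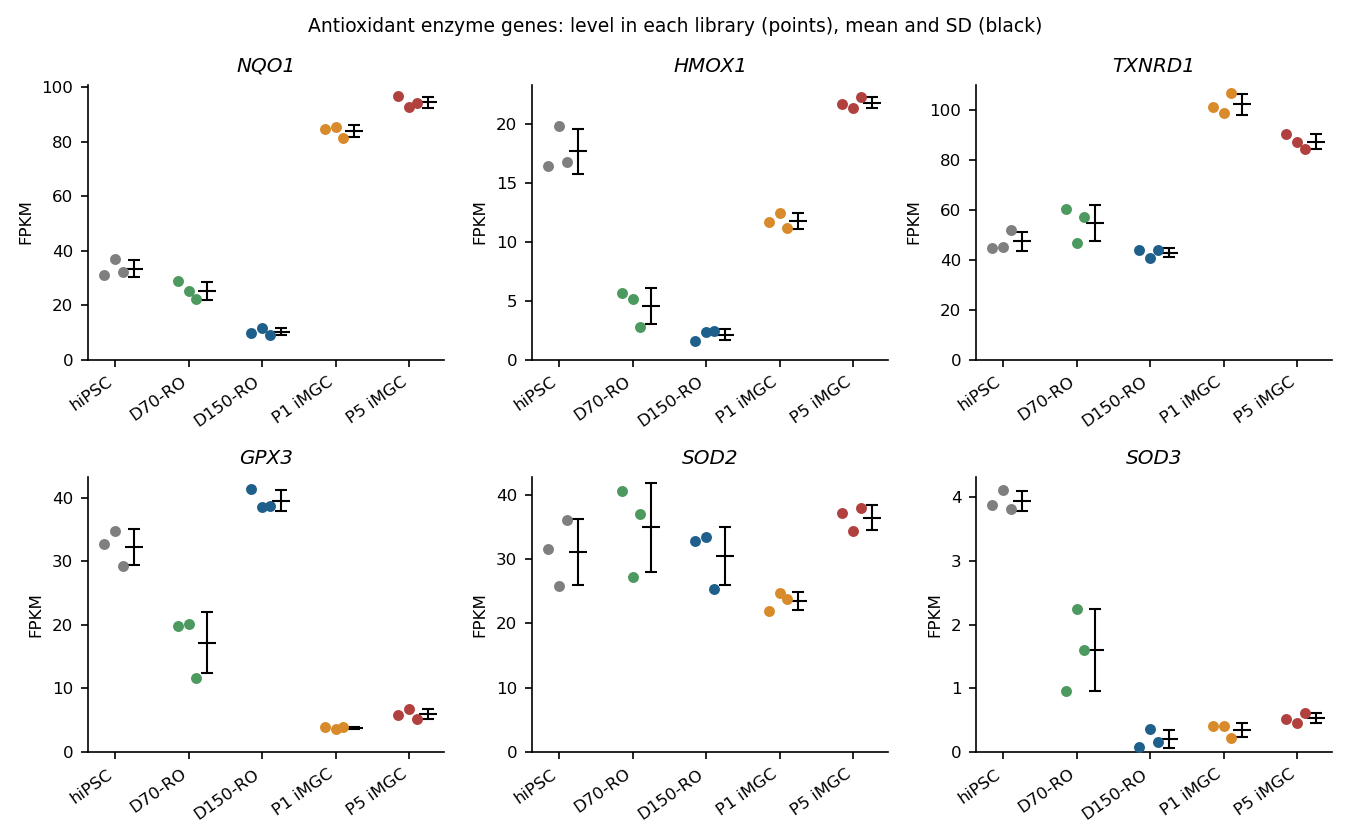
FPKM of NQO1, HMOX1, TXNRD1, GPX3, SOD2 and SOD3 in each of 3 libraries per group, with the mean and SD in black (linear axes from 0). NQO1 and HMOX1 were lowest at D150 and highest in P5 iMGCs, GPX3 was lowest in the iMGCs, and SOD3 was above 1 FPKM in all libraries of hiPSCs alone.

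NQO1 (chr16:69706996-69726951, minus strand) was lowest in the older ROs and highest in the iMGCs. Its FPKM was 30.9, 36.8 and 32.2 in hiPSCs, 28.7, 25.1 and 22.1 at D70, and 9.82, 11.7 and 9.13 at D150. It had 84.4, 85.5 and 81.4 FPKM in P1 iMGCs and 96.5, 92.6 and 94.3 in P5 iMGCs, and no neighbouring groups overlapped. NQO1 had a log2 fold change of −0.40 (SE 0.13, adjusted p = 0.018, edgeR) from hiPSCs to D70-ROs, under 2-fold, and then fell by a log2 fold change of −1.37 to D150-ROs (SE 0.14, adjusted p = 2.52e-05, edgeR). This second change was under 2-fold, at −0.68, with the length trend removed. Against hiPSCs, D150-ROs had a log2 fold change of −1.77 (SE 0.12, adjusted p = 2.36e-08, edgeR), which was also under 2-fold, at −0.95, with that trend removed. On the log2 scale, P1 iMGCs exceeded D150-ROs by 3.56 (SE 0.07, adjusted p = 3.47e-16, edgeR) and hiPSCs by 1.79 (SE 0.08, adjusted p = 1.83e-09, edgeR).

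HMOX1 (chr22:35380361-35394214, plus strand) was lowest at D150 too. It had 16.5, 19.9 and 16.7 FPKM in hiPSCs, 5.64, 5.13 and 2.77 at D70, and 1.56, 2.32 and 2.46 at D150. The P1 iMGCs had 11.7, 12.5 and 11.2 FPKM and the P5 iMGCs 21.7, 21.4 and 22.3, so that P1 lay below the hiPSCs and P5 above them, without overlap. HMOX1 fell by log2 fold changes of −2.17 from hiPSCs to D70-ROs (SE 0.23, adjusted p = 7.19e-06, edgeR) and −1.35 from D70-ROs to D150-ROs (SE 0.29, adjusted p = 0.00262, edgeR). The second fall was under 2-fold on log2(FPKM + 1), at −0.79, and at −0.998 with the length trend removed. P1 iMGCs were 3.21 above D150-ROs on the log2 scale (SE 0.14, adjusted p = 5.17e-12, edgeR). Against hiPSCs the P1 iMGCs had a log2 fold change of −0.31 (adjusted p = 0.0238, edgeR), which is under 2-fold.

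TXNRD1 (chr12:104215779-104350305, plus strand) was the least variable of these 3. Its FPKM was 44.8, 45.2 and 51.8 in hiPSCs, 60.3, 46.7 and 57.1 at D70, and 43.7, 40.8 and 43.8 at D150, where only D70-ROs and hiPSCs overlapped. It had 101, 98.6 and 107 FPKM in P1 iMGCs and 90.1, 87.0 and 84.0 in P5 iMGCs. The changes among hiPSCs, D70-ROs and D150-ROs were under 2-fold, from −0.63 to 0.21 on the log2 scale. On the same scale, P1 iMGCs were above D150-ROs by 2.00 (SE 0.04, adjusted p = 7.93e-16, edgeR) and above hiPSCs by 1.58 (SE 0.09, adjusted p = 1.26e-08, edgeR). TXNRD1 and NQO1 each overlap an antisense gene, and the strandedness of the counting is not given in the sources used here. TXNRD1 also overlaps EID3 and the pseudogene RPL18AP3 on its own strand. Of the 50-base words in the NQO1 transcripts, 15.3% also occur in a transcript of another gene on either strand. At 100 bases the share was 11.1%, held by its antisense gene AC092115.2. For TXNRD1 both shares were 0.

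GPX3 (chr5:151020438-151028993, plus strand) took the opposite course in culture. It had 32.7, 34.7 and 29.2 FPKM in hiPSCs, 19.8, 20.1 and 11.6 at D70, and 41.4, 38.5 and 38.7 at D150. In P1 iMGCs it had 3.88, 3.54 and 3.83 FPKM and in P5 iMGCs 5.84, 6.72 and 5.23. No neighbouring groups overlapped in the order D150-RO, hiPSC, D70-RO, P5 iMGC, P1 iMGC. GPX3 fell by a log2 fold change of −2.69 from D150-ROs to P1 iMGCs (SE 0.09, adjusted p = 8.02e-14, edgeR). Against hiPSCs the P1 iMGCs had a log2 fold change of −2.72 (SE 0.13, adjusted p = 3.32e-09, edgeR).

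Between D70-ROs and hiPSCs GPX3 had a log2 fold change of −0.96 (SE 0.21, adjusted p = 0.00158, edgeR), and between D150-ROs and D70-ROs by 0.94 (SE 0.20, adjusted p = 0.00207, edgeR). Both lay just under 2-fold. The first passed it without hiPSC replicate 1 (−1.07), hiPSC replicate 3 (−1.07) or D70-RO replicate 2 (−1.04), and the second without D70-RO replicate 2 (1.09) or D150-RO replicate 3 (1.00), on log2(FPKM + 1) (1.19) and with the length trend removed (1.46). Between D150-ROs and hiPSCs the log2 fold change was −0.02 (adjusted p = 0.872, edgeR), and its sign was opposite, at 0.29, on log2(FPKM + 1).

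SOD2 (chr6:159669057-159745186, minus strand) was the most even member. Its FPKM was 31.5, 25.8 and 36.1 in hiPSCs, 40.5, 27.2 and 37.0 at D70, 32.8, 33.4 and 25.4 at D150, 22.0, 24.8 and 23.7 in P1 iMGCs, and 37.1, 34.3 and 38.0 in P5 iMGCs. All neighbouring groups overlapped but D150-ROs and P1 iMGCs. No comparison called SOD2. In P1 iMGCs against D150-ROs its log2 fold change was 0.47 (SE 0.05, adjusted p = 4.33e-07, edgeR) and −0.36 on log2(FPKM + 1), where the median gene had −0.59. In P1 iMGCs against hiPSCs these values were 0.56 and −0.38. SOD2 overlaps WTAP on the other strand and a second SOD2 entry, which had at most 4.04 counts in any library.

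SOD3 (chr4:24789912-24800842, plus strand), which the study used with GFAP, S100B and PAX2 to look for non-retinal cells in the iMGCs, was highest in the hiPSCs. It had 3.88, 4.12 and 3.82 FPKM in hiPSCs, 0.96, 2.25 and 1.60 at D70, and 0.08, 0.36 and 0.16 at D150. In P1 iMGCs SOD3 had 0.41, 0.40 and 0.22 FPKM, from 26 counts, and in P5 iMGCs 0.52, 0.46 and 0.61, from 40 counts. From hiPSCs it fell by log2 fold changes of −1.47 to D70-ROs (SE 0.29, adjusted p = 8.31e-04, edgeR), −4.60 to D150-ROs (SE 0.32, adjusted p = 3.79e-08, edgeR) and −3.24 to P1 iMGCs (SE 0.25, adjusted p = 1.71e-07, edgeR). The other 3 comparisons were below the filter of 1 FPKM in 3 libraries. The first fall was just under 2-fold, at −0.95, on log2(FPKM + 1).

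Between P5 and P1 iMGCs edgeR called 0 of the 8 members tested, and DESeq2 and limma on log2(FPKM + 1) called 0 as well. With edgeR, 7 of 8 had an unadjusted p under 0.05. The same 7 passed the adjusted p alone, where 30.7% of all genes did. Their P1 and P5 libraries did not overlap, as was the case for 39.5% of all genes. HMOX1 was nearest to 2-fold at a log2 fold change of 0.95 (SE 0.07, adjusted p = 5.35e-11, edgeR), and leaving out single libraries moved it between 0.91 and 0.99. On the log2 scale GPX3 had 0.74, SOD2 0.62, NQO1 0.25, MT1E −0.41, MT2A −0.22 and TXNRD1 −0.17, all under 2-fold. MT1X had 0.25 (adjusted p = 0.353, edgeR).

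The culture labelled as MGCs was checked against 10 MGC markers. VIM had 2160 FPKM at P1 and 2860 at P5, CRYAB 30.2 and 134, DKK3 246 and 390, and APOE 37.2 and 34.5. At D150 VIM had 1060 FPKM, CRYAB 10.9, DKK3 273 and APOE 13.6, and in hiPSCs APOE had 551. SOX9 had 42.6 FPKM at D150, 5.21 at P1 and 3.59 at P5, and fell to P1 by a log2 fold change of −2.39 (adjusted p = 4.32e-14, edgeR). GLUL had 100.0 FPKM at D150, 13.4 at P1 and 14.6 at P5. RLBP1 had 33.5 FPKM at D150, 0 at P1 and 0.03 at P5, KCNJ10 3.77, 0.02 and 0.00667, and SLC1A3 28.0, 0.373 and 1.19. AQP4 was near the floor already at D150, with 0.193 FPKM, and had 0 at P1 and 0 at P5. Of the 9 MGC markers tested in P1 iMGCs against D150-ROs, 3 were higher and 5 lower, with a median of −2.25. The 12 photoreceptor markers summed to 1090 to 1240 FPKM at D150 and to 0.34 to 0.74 in P1 iMGCs, where 8 were at 0. The 10 mesenchymal and fibroblast markers summed to 24.2 to 29.4 FPKM at D150 and to 2310 to 2410 in P1 iMGCs, led by COL1A1 at 2000 FPKM. The 6 astrocyte markers summed to 0.18 to 0.33 FPKM and the 8 microglia markers to 0.38 to 0.94 in P1 iMGCs. The part of these shifts in the metallothionein and enzyme changes was not tested.

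**Figure D5:**
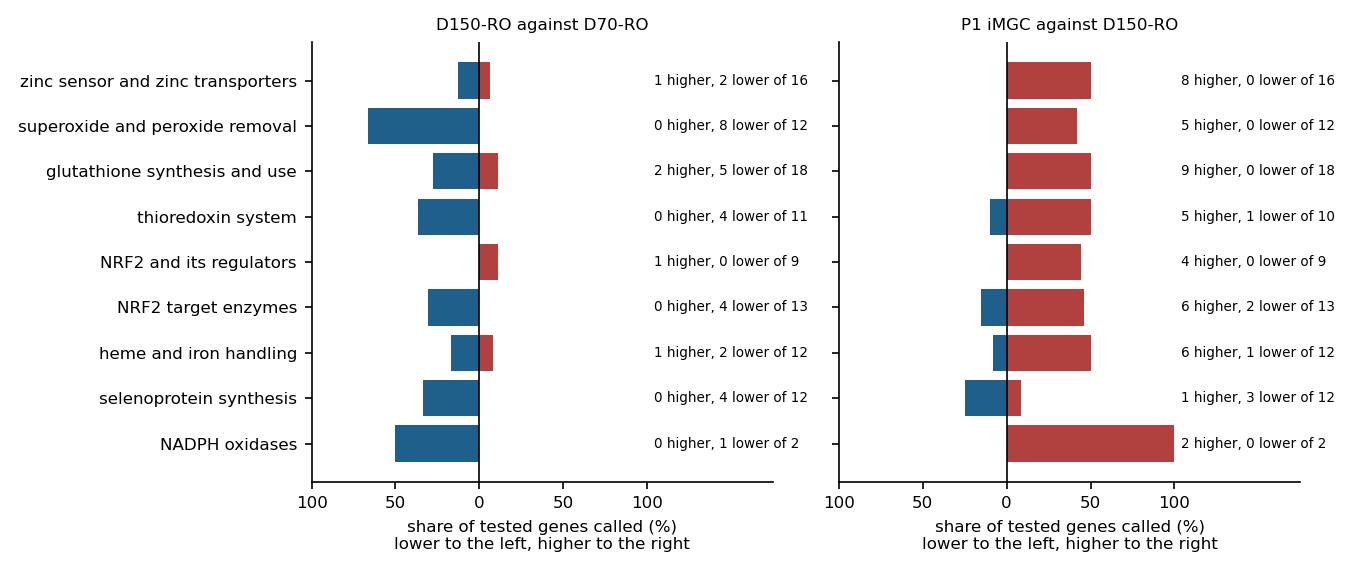
Share (%) of the tested genes of 9 related gene lists called higher (red, right) or lower (blue, left) by edgeR at D150 against D70-ROs and in P1 iMGCs against D150-ROs, with the counts beside the bars. Of 12 genes for superoxide and peroxide removal, 8 were lower at D150 than at D70 and 5 were higher in P1 iMGCs than at D150, and the first count was 3 with the length trend removed.

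Genes of the zinc and redox pathways around the members were counted in lists that leave the members out. Among 18 genes of zinc sensing and transport, 8 of 16 tested were called higher in P1 iMGCs than at D150 and 0 lower. The shares of all genes were 20% higher and 24.1% lower. The list median was 1.07 on the log2 scale against −0.05 over all genes. With the length trend removed 10 of the list were higher and 0 lower. SLC39A14, a zinc importer, rose from 8.54 ± 0.346 to 38.9 ± 0.889 FPKM (SD, n = 3, log2 fold change 2.82, adjusted p = 7.4e-17, edgeR). Its level was 65.0 ± 4.87 FPKM in hiPSCs and 9.53 ± 0.0451 at D70, so it did not follow the order of groups of MT2A. SLC30A7, a zinc transporter of the Golgi, rose by 1.43 (log2, adjusted p = 1.47e-12, edgeR). In FPKM its rise, from 6.27 ± 0.676 to 11.5 ± 0.411, was under 2-fold. MTF1 itself was called at D150 against D70-ROs, where it rose from 2.40 ± 0.448 to 5.61 ± 0.201 FPKM (log2 fold change 1.00, adjusted p = 1.29e-04, edgeR), a call that was lost at 0.22 with the length trend removed. The zinc exporter SLC30A1 was higher in P1 iMGCs than in hiPSCs by 2.20 (log2, adjusted p = 2.35e-08, edgeR).

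Among 13 other genes for removal of superoxide and peroxide, 8 of 12 tested were lower at D150 than at D70 and 0 higher, where 16.7% of all genes were lower, with a median of −1.32 against −0.01 over all genes. With the length trend removed 3 were lower and 1 higher, and the median was −0.50. Under that setting the genes called lower in this comparison went from 4 to 0 in the thioredoxin system and from 4 to 1 in the selenoprotein list. GPX1, the cytosolic glutathione peroxidase, fell from 137 ± 14.6 to 40.6 ± 4.08 FPKM (log2 fold change −2.01, adjusted p = 1.43e-06, edgeR), and PRDX4, a peroxiredoxin of the endoplasmic reticulum, by −1.87 (log2, adjusted p = 2.32e-06, edgeR). With the length trend removed, GPX1 was still called at −1.20 and PRDX4, at −0.98, was not. In P1 iMGCs against D150-ROs, 5 of 12 were higher and 0 lower, against 20% and 24.1% of all genes. With the length trend removed 5 were higher and 1 lower, and the median went from 0.95 to 0.59. GPX8, a peroxidase of the endoplasmic reticulum, rose from 6.5 ± 0.384 to 98.3 ± 1.09 FPKM (log2 fold change 4.54, adjusted p = 2.62e-18, edgeR), while its secreted relative GPX3 fell. Catalase (CAT) was the 1 gene of this list called between the passages, at −1.03 from P1 to P5 (log2, adjusted p = 1.47e-06, edgeR).

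In the list of glutathione synthesis and use, 9 of 18 genes tested were higher in P1 iMGCs than at D150 and 0 lower. The shares of all genes were 20% and 24.1%, and the list median was 1.03 against −0.05. With the length trend removed 8 were higher and 2 lower, with a median of 0.75. The membrane-bound glutathione transferase MGST1 rose from 2.17 ± 0.181 FPKM by a log2 fold change of 4.42 (adjusted p = 4.59e-14, edgeR). It had 214 ± 33.0 FPKM in hiPSCs. SLC7A11, the cystine importer, had 1.91 ± 0.81 FPKM at D70, 9.73 ± 0.483 at D150 and 14.8 ± 1.35 in P1 iMGCs, and rose from D70-ROs to D150-ROs by 2.11 (log2, adjusted p = 8.27e-05, edgeR), or by 1.21 with the length trend removed. In the thioredoxin system, 5 of 10 genes tested were higher in P1 iMGCs than at D150 and 1 lower, against the same shares. The median was 1.09, and with the length trend removed 5 were higher and 0 lower. TXN, the substrate of TXNRD1, rose from 39.5 ± 4.82 to 96.7 ± 4.41 FPKM (log2 fold change 1.94, adjusted p = 1.37e-12, edgeR). TXNIP, which binds and inhibits thioredoxin, was higher at P5 than at P1 by 1.03 (log2, adjusted p = 2.14e-15, edgeR).

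Only RNA was measured, and the part of NRF2 and of BACH1 in the HMOX1 changes was not tested. NFE2L2, the gene of NRF2, took another course in RNA than HMOX1. It had 8.80 ± 2.71 FPKM in hiPSCs, 20.2 ± 3.22 at D70 and 55.8 ± 2.90 at D150, and rose by log2 fold changes of 1.09 (adjusted p = 8.52e-04, edgeR) and then 1.21 (adjusted p = 1.15e-05, edgeR), while HMOX1 fell at both steps. In P1 iMGCs NFE2L2 had 40.8 ± 1.55 FPKM, below D150. By edgeR, D150-ROs exceeded hiPSCs in NFE2L2 by 2.30 and P1 iMGCs exceeded hiPSCs by 2.52 on the log2 scale. The 2 scales thus order D150-ROs and P1 iMGCs differently, and no fall of NFE2L2 is claimed. BACH1, a repressor of HMOX1, rose from 21.6 ± 2.99 at D150 to 36.9 ± 0.661 FPKM in P1 iMGCs (log2 fold change 1.60, adjusted p = 3.69e-14, edgeR), where HMOX1 rose too. In mean FPKM this rise of BACH1 was under 2-fold. Of the 16 other NRF2 target enzymes, 10 of 14 tested were lower at D70 than in hiPSCs and 2 higher (AKR1C1 and AKR1C2). The shares of all genes were 21.1% lower and 22.5% higher. With the length trend removed 8 of these enzymes were lower and 2 higher. In P1 iMGCs against D150-ROs, 6 of 13 were higher and 2 lower (again AKR1C1 and AKR1C2), against 20% and 24.1% of all genes. CBR3, a carbonyl reductase, had 0.05 ± 0.05 FPKM at D150 and 5.31 ± 0.783 in P1 iMGCs. ME1, the cytosolic malic enzyme that makes NADPH, rose from 3.68 ± 0.212 to 18.5 ± 0.879 FPKM (log2 fold change 2.97, adjusted p = 4.65e-15, edgeR).

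Among 12 genes of heme and iron handling, 6 were higher and 1 lower in P1 iMGCs than at D150. The shares of all genes were 20% and 24.1%, and the list median was 1.09. With the length trend removed 5 were higher and 1 lower, with a median of 0.65. FTL, the ferritin light chain, rose from 520 ± 55.4 to 1290 ± 32.8 FPKM (log2 fold change 1.96, adjusted p = 1.8e-13, edgeR), and BLVRB, a biliverdin reductase, by 1.95 (log2, adjusted p = 1.37e-10, edgeR). The iron exporter SLC40A1 was the lower gene, from 39.9 ± 1.13 to 1.52 ± 0.135 FPKM (log2 fold change −4.07, adjusted p = 1.33e-16, edgeR). GPX3 and TXNRD1 carry selenocysteine. Of 12 genes of selenoprotein synthesis and other selenoproteins, 1 was higher and 3 lower in P1 iMGCs, where 24.1% of all genes were lower, so the share of lower genes was near that of all genes. SELENOP, the secreted selenium carrier, fell from 34.1 ± 2.30 to 1.58 ± 0.348 FPKM (log2 fold change −3.78, adjusted p = 3.78e-14, edgeR), and SECISBP2, which binds the selenocysteine insertion element, by −1.82 (log2, adjusted p = 2.42e-14, edgeR). Among 9 genes of the superoxide-producing NADPH oxidases and their subunits, only 2 passed the filter in P1 iMGCs against D150-ROs. Both were called higher, where 20% of all genes were higher and 24.1% lower. NOX4 rose from 2.00 ± 0.127 to 8.82 ± 0.716 FPKM (log2 fold change 3.26, adjusted p = 8.53e-13, edgeR) and CYBA, the membrane subunit, by 2.63 (log2, adjusted p = 2.16e-13, edgeR).

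Across the 15 libraries, log2(FPKM + 1) of MT2A and MT1E had a Pearson correlation of 0.996, MT2A and MT1X of −0.552, and GPX3 and TXNRD1 of −0.975. These are descriptions over 15 libraries of 5 groups, in which the libraries of a group share their cells and culture. Among 12894 other genes with a mean of at least 1 FPKM, those most like MT2A by this measure were LOXL1 (0.994), ELF4 (0.988) and CNTN6 (0.986). LOXL1, a cross-linking enzyme of elastic fibres, had 10.8, 33.3, 12.9, 134 and 123 FPKM in hiPSCs, D70-ROs, D150-ROs, P1 and P5 iMGCs. The genes most like NQO1 were LIPA (0.994), PLOD1 (0.991) and CEBPB (0.99), and those most like GPX3 were SHANK2 (0.989), LZTS3 (0.986) and AKAP8 (0.983). For SOD2 the highest values were 0.751 (CPNE8), 0.729 (LACTB2) and 0.719 (SPNS2), and for MT3, which rests on 11 counts in all, 0.768 (ORMDL3), 0.762 (RNF111) and 0.743 (CCDC163).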

How the data were processed

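Poly(A) RNA-seq of 15 libraries was analysed, with 3 libraries in each of the 5 groups named by the labels. Mapping by the authors used HISAT2 and assembly StringTie, and RSEM gave the gene values. Versions, genome build and annotation are not given in the sources used here. The deposited expected counts are the authors' RSEM estimates per gene without normalization, and 8.21% to 10.1% of them were not whole. The deposited FPKM were scaled by the authors for transcript length and mapped fragments. Library totals were 11349600 to 20398755 expected counts. The tables also hold 12 columns that were not used here, 6 of them iMGC columns that name no passage and the others D150-RO columns that a second table gives again.

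Expected counts were rounded and tested with edgeR 4.0.16 (quasi-likelihood, TMM factors) in R 4.3.3, 2 groups at a time, over genes with at least 1 FPKM in at least 3 of the libraries compared. Calls needed an adjusted p (Benjamini-Hochberg) under 0.05 and a fold of at least 2. The SE given with edgeR is the absolute log2 fold change divided by the square root of the F statistic, and may understate the error. For SOD3 in D150-ROs against hiPSCs it was 0.32, against 0.45 by DESeq2. For MT2A in D70-ROs against hiPSCs it was 0.37, against 0.34 by DESeq2. On data simulated for the 6 comparisons, edgeR recovered 100% of 200 genes changed 4-fold. Only these 200 genes were changed, up or down at random, so the simulation does not test the scaling where a large share of genes differ. False calls are not reported here. Alternatives were no filter, upper-quartile scaling, DESeq2 1.42.0, limma 3.58.1 on log2(FPKM + 1) and log2(FPKM + 0.1), all 15 libraries in 1 fit, the replicate number as a block, removal of a smooth length trend, and leaving out each library. Transcript length was inferred from counts and FPKM. A group with no count allows up to 3 counts, for counting error only.

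The members and lists were chosen with earlier results of these data known. Named were all 10 members, from each list and comparison at most 4 called genes with the largest changes among those whose groups do not overlap, for MT2A, MT3, GPX3, SOD2 and NQO1 the 3 genes most like them, and in marker lists the highest genes and those at 0. Other marker genes, and genes of a list named with a count, were chosen after their values were seen. Positions and coding sequences are of GENCODE 29 (GRCh38), promoters of RefSeq (GRCh38.p14). A planned comparison of protein sequences was not run. Coding sequences are shown for 3 members only. The lists were also counted with the length trend removed in the comparisons for which list counts are given, an alternative chosen after seeing the data.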

Additional observations from a re-analysis of the deposited data

How the results depend on the processing

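The counts of members called stayed within 1.5 times under the alternatives run, except between D150-ROs and D70-ROs, where 5 became 3 with the length trend removed. The same count can hold other genes, as in D150-ROs against hiPSCs, where 0 higher and 4 lower became 2 and 2 under that setting. With single libraries left out, these counts were 4 to 5 (D70-ROs against hiPSCs), 5 to 6 (D150-ROs against D70-ROs), 3 to 4 (D150-ROs against hiPSCs), 6 (P1 iMGCs against D150-ROs), 0 (P5 against P1 iMGCs) and 6 to 7 (P1 iMGCs against hiPSCs). Of the members' log2 fold changes under an alternative, 667 kept direction and call, 14 gained a call, 11 lost one and 16 turned sign. In D150-ROs against hiPSCs, GPX3 (−0.02) became 0.29 and 0.30 on log2(FPKM + 1) and log2(FPKM + 0.1) and 0.59 with the length trend removed, and ranged from −0.21 to 0.19 with single libraries left out. In the same comparison SOD2 (0.09) became −0.026, −0.027 and −0.13 under these settings and ranged from −0.097 to 0.32, and MT1X (−1.05) became 0.41 with the length trend removed. On the 2 FPKM scales SOD2 became −0.36 and −0.37 in P1 iMGCs against D150-ROs, and −0.38 and −0.39 in P1 iMGCs against hiPSCs. HMOX1 became 0.12 in the last comparison with the length trend removed. The causes were not tested.

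The deviations of equally numbered libraries correlated between −0.0587 and 0.347. No values for unequally numbered libraries are given beside these, so whether replicate numbers pair the libraries was not tested. With the replicate block the counts of members called were 4, 5, 4, 6, 0 and 7 in the order above, and it changed no call. MT3 rests on at most 5 counts per library and SOD3 on at most 44 outside the hiPSCs, which limits both.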
